A study of Mus musculus with 2 samples.

Results

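Non-polyadenylated (NPA) RNA from mouse embryonic stem cells (ESCs) and from neuronal progenitor cells derived from them (NPCs) contained reads of the spacers of the ribosomal RNA precursor. These reads lie on the plus strand of an rDNA-like copy on chromosome 17 (mm9, chr17:39979900-39985800), which held 89241 of 4271306 reads in ESCs and 26879 of 4399729 reads in NPCs. They are described here together with 10 genes, AY036118, which overlaps the end of the copy, and Polr1a, Polr1b, Polr1c, Polr1e, Ubtf, Rrn3, Taf1b, Myc and Mycn, out of 37273 annotated genes in GENCODE release M1. Of the 10 genes, 9 had at least 10 exon reads in the pooled libraries, as did 14859 genes in all. The copy and the genes were chosen by position and name with read counts of these same libraries in view, so the ratios between the cell types are given as a description with no test.

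ESCs were R1 cells, a male mouse line, at passage 18, grown with leukemia inhibitory factor on Mitomycin C-treated mouse embryonic fibroblasts. NPCs came from the same line through 4 days of embryoid bodies without that factor, followed by culture on poly-L-ornithine and fibronectin in a medium with insulin, transferrin and selenium until day 7. Each cell type was sequenced as 1 strand-specific SOLiD library of NPA RNA, so every difference below compares these libraries and has no replicate check. All intervals are 95% intervals and cover counting error only, since PCR copies of a molecule are not independent reads.

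Ribosomal DNA is transcribed by RNA polymerase I (Pol I) in the nucleolus as a long precursor that carries an external spacer at its 5′ end and internal spacers between the mature rRNAs. The spacers are cut out and degraded, so their abundance follows both how fast the precursor is made and how fast it is processed. Pol I is brought to the promoter by UBTF, by the selectivity factor SL1, which consists of TBP and its TAF1 partners, and by RRN3, and the Myc proteins are known to raise its output in growing cells.

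Markers of the labelled and other cell types were counted in the same libraries. All 11 counted pluripotency markers were lower in NPCs, with a sum of 2463 RPM (reads scaled to 1000000 reads of the library) in ESCs and 688 RPM in NPCs. Of the neural progenitor markers only 6 of 11 reached 10 pooled reads, with 4 higher and 2 lower in NPCs. More than 2-fold, 2 were higher and 1 was lower, against 24.6% and 12.8% of all genes, and the lowest log2 ratio was -1.28. The sums over the neural progenitor markers were 262 RPM in ESCs and 259 RPM in NPCs. Nes (66 and 121 reads), Vim (469 and 706) and Pax6 (1 and 12) had more reads in NPCs, and the 2 lower markers are not named here. Fabp7 (0 reads in ESCs, 2 in NPCs), Hes5 (1 and 2), Sox3 (0 and 5) and Pou3f2 (0 and 5) were at or near 0. All 12 extraembryonic endoderm markers were more than 2-fold higher in NPCs, against 24.6% of all genes with at least 10 reads, with sums of 808 and 15579 RPM. The fibroblast markers summed to 60.2 and 450 RPM, with 6 of 7 higher, against 9336 of 14859 genes in all, and Lum at 0 in both libraries. The part of this change of cell types in the spacer and gene ratios given next was not tested.

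Reads of the copy ran from base 39980109 to base 39985774, and bases below are counted from 1 at the first of these. No read lay on the minus strand in either library, which allows up to 3 reads, or 0.702 RPM in ESCs and 0.682 RPM in NPCs. The copy fell into an upstream stretch with reads of 3092 nt (chr17:39980109-39983200), a stretch of 2010 nt with no read in either library (chr17:39983201-39985210) and a downstream stretch with reads of 564 nt (chr17:39985211-39985774). The upstream stretch is taken here as the 5′ external spacer, the read-free stretch as the small subunit rRNA, which the authors' filter on ribosomal sequences would remove, and the downstream stretch as the first internal spacer. No sequence of the mature rRNA was at hand to check these names. The GC content was 69.0% upstream, 56.8% in the read-free stretch and 71.3% downstream.

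The first 300 bases of the upstream stretch on the plus strand of mm9 are shown because 5 of the 10 most used read starts lie in them. Capitals mark those starts, at bases 73, 78, 88, 221 and 229.
first 300 bases (chr17:39980109-39980408): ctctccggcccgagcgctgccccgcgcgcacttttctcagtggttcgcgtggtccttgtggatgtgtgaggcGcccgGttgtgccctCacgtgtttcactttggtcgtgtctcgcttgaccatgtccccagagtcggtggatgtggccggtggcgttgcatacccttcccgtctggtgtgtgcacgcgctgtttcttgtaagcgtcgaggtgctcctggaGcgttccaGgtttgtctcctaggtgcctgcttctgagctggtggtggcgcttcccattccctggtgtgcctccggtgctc

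The 48 bases that begin at bases 567, 518 and 2823 are shown because, of the 10 most used starts, the libraries differed most at these. Capitals mark bases at which reads differed from mm9.
start 567 (chr17:39980675-39980722): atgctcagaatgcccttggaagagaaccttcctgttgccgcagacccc
start 518 (chr17:39980626-39980673): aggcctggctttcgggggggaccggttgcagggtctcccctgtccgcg
start 2823 (chr17:39982931-39982978): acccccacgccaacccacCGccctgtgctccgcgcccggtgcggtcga

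Spacer reads were fewer in NPCs than in ESCs over the whole copy. In ESCs the copy took 2.09% of the library (95% Clopper-Pearson interval 2.08 to 2.10), and in NPCs 0.611% (0.604 to 0.618). The level was 20893 RPM in ESCs and 6109 RPM in NPCs, 3.42-fold higher in ESCs (3.37 to 3.47). The libraries' intervals do not overlap. In bulk RNA of this kind, fewer cells with the spacer RNA and less spacer RNA per cell cannot be told apart. Counting every start position a single time left 1423 positions in ESCs and 1071 in NPCs and a 1.60-fold ratio. The direction was the same, and the size rested on how often a start was read. Distinct starts cannot outnumber the bases of a stretch, so here and below this count is bounded in deeply read stretches. It does not measure PCR copying.

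Both spacers showed the difference. The upstream stretch had 86377 reads in ESCs and 25934 in NPCs (3.43-fold higher in ESCs, 3.38 to 3.48). The downstream stretch had 2864 and 945 reads (3.12-fold, 2.90 to 3.36), so the intervals of the ratios of the spacers do not overlap, although both lie above 2. Per length, the upstream stretch stood at 6540 RPM per kilobase (RPKM) in ESCs and 1906 in NPCs, and the downstream stretch at 1189 and 381. The downstream stretch held 3.21% of the copy's reads in ESCs (3.09 to 3.33) and 3.52% in NPCs (3.30 to 3.74), and these intervals overlap.

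Most reads lay in the 5′ spacer cluster, a run of overlapping reads over the first 868 nt of the copy (chr17:39980109-39980976). It held 67937 reads in ESCs and 20021 in NPCs, which was 3.50-fold more in ESCs (3.44 to 3.55), or 1.42-fold with each start position counted once. It made up 76.1% of the copy's reads in ESCs (75.8 to 76.4) and 74.5% in NPCs (74.0 to 75.01). Among all 961373 runs of overlapping reads in the genome it ranked 2 by reads in ESCs and 4 in NPCs. Of the 101 other runs with at least 5000 pooled reads, 23 had a lower NPC to ESC ratio. The 3 with the log2 ratio nearest to its value of -1.81 were a run over the histone gene Hist1h4b (-1.78), a run over Snora23 inside Ipo7 (-1.78) and the fourth run of the copy itself (-1.86). Likeness in this sense rests on 1 ratio per run.

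The copy held 10 runs, and the difference was not the same along it. Run 2 (192 nt) began 870 bases after the first base and had 1863 reads in ESCs against 1185 in NPCs. Its ratio of 1.62-fold (1.505 to 1.74) was the smallest of the runs with at least 300 pooled reads. Run 3, next to it (302 nt), had 1314 and 321 reads and a ratio of 4.22 (3.73 to 4.78). Runs 4 and 8 were the next in size after the 5′ cluster, with 6681 and 1893 reads (3.64-fold, 3.45 to 3.83) and with 6528 and 1754 reads (3.83-fold, 3.64 to 4.04). These neighbours along the spacer thus differed beyond counting error.

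In bins of 100 bases, 37 of 57 bins had reads and 26 had at least 300 pooled reads. In all 26 the RPM was higher in ESCs, by 1.40-fold to 6.82-fold with a median of 3.03. The lowest ratio was in the bin that starts 800 bases after the first base (1162 ESC and 857 NPC reads), and the highest in the bin at 2800 bases (2405 and 363 reads). The shapes of the profiles overlapped by 84.0%, taken as the sum over bins of the smaller of the shares of the copy's reads.

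**Figure D1:**
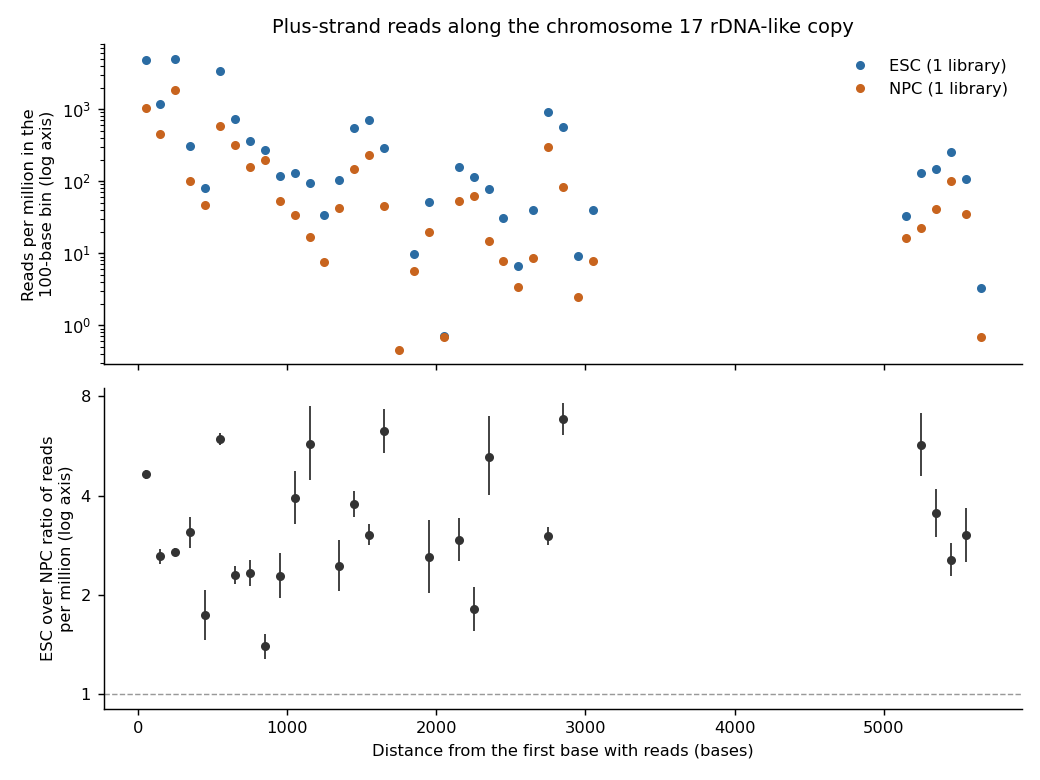
Plus-strand reads in RPM in 100-base bins against the distance from the first base with reads (top, ESCs blue, NPCs orange, bins with no read left out), and the ESC over NPC ratio with 95% counting intervals for the 26 bins with at least 300 pooled reads (bottom). All 26 ratios lie above 1, between 1.40 and 6.82, and a stretch of 2010 nt has no reads.

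Reads did not start evenly along the spacer. The 5 most used starts held 47.6% of the copy's full-length reads in ESCs (47.2 to 47.9) and 40.1% in NPCs (39.5 to 40.7), out of 1421 and 1070 used start positions. Base 73 was the most used start in ESCs, with 11312 reads against 2165 in NPCs (5.38-fold higher RPM in ESCs, 5.14 to 5.64). Base 567 followed with 11249 and 1926 reads (6.02-fold, 5.73 to 6.32). Each of these starts gave a larger share of the ESC reads, 12.7% and 12.6%, than of the NPC reads, 8.08% and 7.19%.

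Base 229 behaved differently from its close neighbour, base 221. It had 7954 reads in ESCs and 4315 in NPCs, 1.90-fold more in ESCs (1.83 to 1.97), and was the most used start in NPCs, with 16.1% of the copy's reads against 8.92% in ESCs. Base 221 had 7911 reads in ESCs and 1606 in NPCs, 5.07-fold (4.81 to 5.36). Reads that start at these bases overlap over most of their length, and their numbers were close in ESCs and far apart in NPCs.

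Further starts spread more widely. Base 88 had 3971 and 733 reads (5.58-fold, 5.16 to 6.05). Base 518 had 1696 reads in ESCs and 151 in NPCs, 11.6-fold (9.79 to 13.8), the largest ratio of the 10 most used starts, and fell from rank 6 in ESCs to rank 22 in NPCs. Base 2823, in the distal part of the upstream stretch, had 1335 and 175 reads (7.86-fold, 6.71 to 9.25). Bases 78 and 2780 had the ratios nearest to that of base 229, with 2.40-fold (2.14 to 2.70) and 2.38-fold (2.11 to 2.67). Reads were placed by fragmentation with RNase III, adaptor ligation and PCR, and then passed alignment and the authors' filter. Of the intervals cut by that filter, 108 of 109 in ESCs and 74 of 74 in NPCs began at the first base with reads. The part of all these steps in the pattern of starts was not tested.

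**Figure D2:**
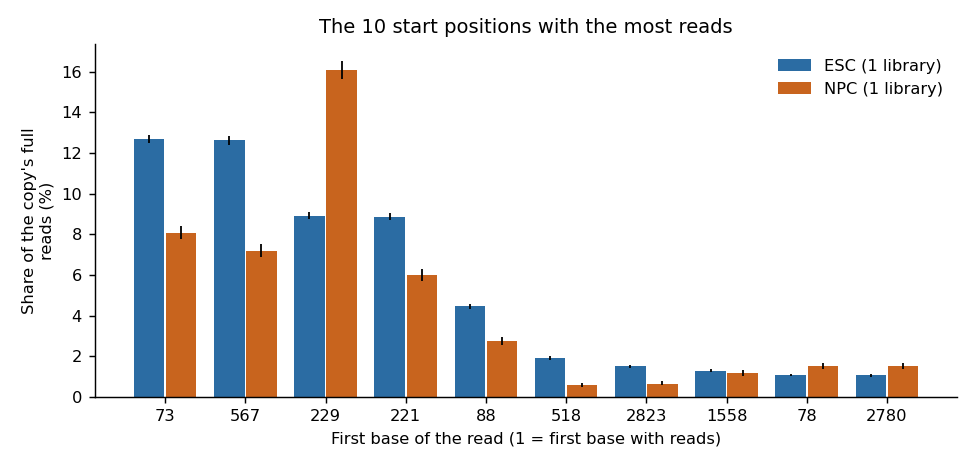
Share of the copy's full-length reads (%) that begin at each of the 10 most used start positions in ESCs (blue) and NPCs (orange), with 95% Clopper-Pearson intervals. Base 229 holds 16.1% in NPCs against 8.92% in ESCs, while bases 73 and 567 hold larger shares in ESCs.

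The reads came with their sequences, which could be set against mm9. In ESCs 78.6% of full-length reads had 0 differing bases and 21.4% had 1, and in NPCs 78.8% and 21.1%. Outside the sites described next, 0.0333% of the bases read in ESCs and 0.0316% in NPCs differed, which gives the background. At 770 bases with at least 300 reads in each library, 4 sites differed in more than 5% of the reads of both libraries. The token C126T states that mm9 has C at base 126 and the reads have T. The 4 sites and 1 neighbouring pair follow with their mm9 surroundings, the differing base in capitals.
site C126T (chr17:39980219-39980249): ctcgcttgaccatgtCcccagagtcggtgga
site T272C (chr17:39980365-39980395): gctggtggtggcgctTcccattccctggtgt
site C340T (chr17:39980433-39980463): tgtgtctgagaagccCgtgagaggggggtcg
site C661G (chr17:39980754-39980784): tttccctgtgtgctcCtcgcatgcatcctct
neighbouring pair C2841T and G2842A (chr17:39982934-39982965): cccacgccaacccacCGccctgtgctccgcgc

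At 2 sites nearly all reads carried the other base. C126T was found in 99.5% of 6061 reads in ESCs and 99.5% of 1247 reads in NPCs, and C661G in 97.5% of 919 and 96.0% of 326 reads. The reference at these bases therefore did not match the RNA of either cell type. The R1 line and the mouse strain of the reference differ, so a strain difference and transcription of another rDNA copy cannot be told apart here.

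At the other 2 sites both bases were common. C340T, at a CpG, was present in 31.8% of 970 reads in ESCs (28.8 to 34.8) and 40.0% of 505 reads in NPCs (35.7 to 44.4). Without its most used start, which gave 17.7% and 43.1%, the C340T shares were 35.1% and 39.5%. T272C was present in 64.0% of 10227 reads in ESCs (63.1 to 64.9) and 50.3% of 5308 reads in NPCs (49.0 to 51.7). The T272C share depended on where reads began. Reads starting at base 229 gave 69.6% in ESCs and 53.1% in NPCs, whereas all other reads gave 44.5% of 2273 and 38.5% of 993 reads. With the first and last 5 bases of each read left out, the shares were 42.3% of 2016 and 37.2% of 887 reads. This trimming also drops the reads from base 229, so it is not a separate check of the count without them. The ESC share was above the NPC share in each count, and no intervals are given for these subsets. At this site 34 of 35 start positions with at least 10 reads in ESCs, and 25 of 26 in NPCs, had both bases at more than 5%.

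With at least 100 reads in each library, 1435 bases were covered and the sites rose to 10, of which 3 were nearly complete and 7 mixed. T679C joined the nearly complete ones, with 99.1% of 921 reads in ESCs and 99.3% of 297 in NPCs. G617C was present in 37.0% of reads in ESCs (33.8 to 40.3) and 47.5% in NPCs (40.1 to 55.0), intervals that overlap slightly. T1429C (11.2% and 14.5%) and T5489C in the downstream stretch (15.8% and 9.68%) were less common, and their intervals overlap between the libraries.

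The neighbouring bases C2841T and G2842A form a CpG, and no placed read carried both changes. The authors' alignment allowed at most 2 mismatches in the seed of a read. How many mismatches both changes together cost was not tested, so this absence cannot show that they exclude each other. Reads with 2 differing bases were rare everywhere, at 0.037% of full-length reads in ESCs and 0.063% in NPCs. No read in either library covered both base 661 and base 679, 18 bases apart, where nearly all reads differed. Whether alignment lost reads with 2 differences was not tested, so shares at close sites describe the placed reads only. In ESCs 26.5% of 2260 reads matched mm9, 34.0% had the first change alone and 39.5% the second alone. In NPCs the shares were 31.96%, 35.4% and 32.6% of 291 reads. The split between the changes depended on the start. In ESCs, reads from base 2823 had C2841T in 49.9% and G2842A in 19.6%, while other reads had 11.03% and 68.1%. SOLiD reads are recorded as colours of neighbouring base pairs, and how decoding bears on this pair was not tested.

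**Figure D3:**
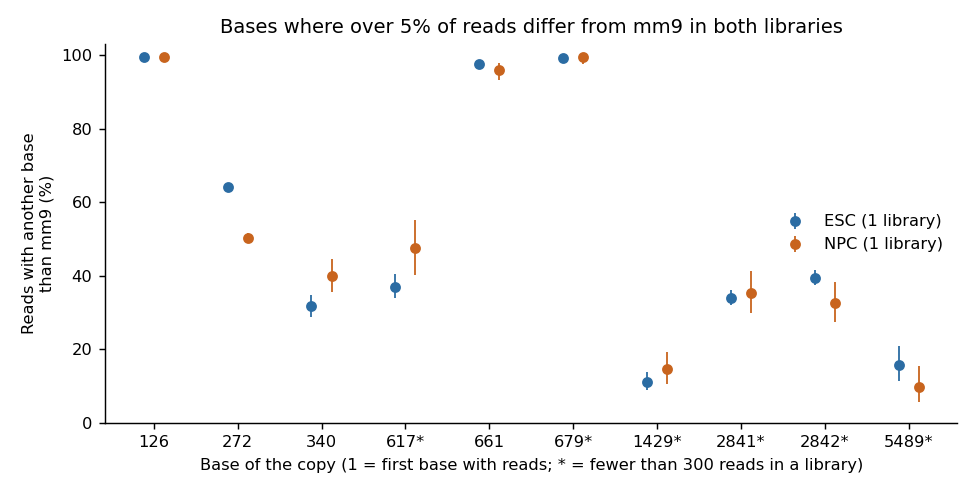
Share of reads (%) with another base than mm9 at the 10 sites above 5% in both libraries, with 95% Clopper-Pearson intervals, in ESCs (blue) and NPCs (orange). An asterisk marks sites with fewer than 300 reads in a library. Bases 126, 661 and 679 are near 100%, and base 272 shows 64.0% in ESCs against 50.3% in NPCs.

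AY036118 (ENSMUSG00000045999.8) is a pseudogene on the minus strand of the copy (chr17:39985048-39985772). On its own strand 0 reads were found in ESCs and 0 reads in NPCs, so its level was not detectable at this depth. The 2864 and 945 reads that lie over it are plus-strand reads, the same as those of the downstream stretch. A count without strand would have assigned all of them to the pseudogene, with a log2 NPC to ESC ratio of -1.64.

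The mRNAs of the Pol I machinery lay on both sides of equal levels. In NPCs 4 of 15 counted genes were lower and 11 higher, against 5523 and 9336 of all 14859 genes with at least 10 reads. The mRNAs are counted here in NPA RNA, that is, after removal of poly(A) RNA, so the counts stand for what remained of them. The log2 ratio of NPC over ESC, with 1 read added in each library, had a median of 0.34 over the 14859 genes that reached 10 reads, a ratio of 1.26, and 24.6% of these genes were more than 2-fold higher and 12.8% more than 2-fold lower in NPCs. Of the 9 genes of the set with at least 10 reads, 2 were more than 2-fold higher in NPCs (22.2%) and 0 more than 2-fold lower, both calls being readings of the log2 ratio without a test. The counting interval of the ratio lay above 1 for 4 of them, below 1 for 3, and held 1 for 2. Set against the median gene's ratio of 1.26 instead, the interval lay above it for 2 of the 9 and below it for 3. Of the 15 genes counted from the Pol I subunits and initiation factors together, 2 were more than 2-fold higher (13.3%) and 0 lower, 8 of them had a log2 ratio below that of the median gene, and their summed reads were 733 RPM in ESCs and 786 RPM in NPCs.

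Polr1a, which encodes the largest catalytic subunit of Pol I (chr6:71859047-71929350), had 786 exon reads in ESCs and 581 in NPCs. Its RPKM was 28.0 and 20.1, and the NPC to ESC ratio was 0.72 (0.64 to 0.80), or -0.81 on the log2 scale relative to the median gene. Polr1c (chr17:46380869-46385003), a subunit shared with Pol III, had 495 and 357 reads and a ratio of 0.70 (0.61 to 0.80). Both genes were lower in NPCs beyond counting error. For Polr1c, 355 of 495 reads in ESCs and 234 of 357 in NPCs were full intervals, the others being reads cut by the authors' filter. With full intervals and their library totals alone its log2 ratio was -0.64 rather than -0.51.

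Polr1b, which encodes the second largest subunit (chr2:128926731-128952330), went the other way, with 97 reads in ESCs and 273 in NPCs. The ratio was 2.73 (2.16 to 3.48), a log2 ratio of 1.44, or 0.69 if every start position counts a single time. Cd3eap, another Pol I subunit gene, had 31 and 89 reads and a ratio of 2.79 (1.83 to 4.34), and a log2 ratio of 0.61 with each start once. The genes of the catalytic pair, Polr1a and Polr1b, thus had ratios on opposite sides of 1 with intervals that do not overlap.

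Polr1e (chr4:45031455-45049437), which encodes a Pol I subunit that works as a pair with the product of Cd3eap, had 45 and 61 reads and a ratio of 1.32 (0.88 to 1.98). Polr1d, shared with Pol III, had 271 and 255 reads (0.91, 0.77 to 1.09). Twistnb had 187 and 180 reads (0.93, 0.76 to 1.15) and Znrd1 33 and 49 (1.44, 0.91 to 2.31). None of these ratios differed from 1 beyond counting error. Scaled to the median gene, Polr1d (log2 ratio -0.47, -0.72 to -0.21) and Twistnb (-0.43, -0.74 to -0.13) were lower in NPCs beyond counting error. Polr1e (0.05, -0.52 to 0.65) and Znrd1 (0.18, -0.47 to 0.87) were not.

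Per exon length, the order of the Pol I subunit genes was the same in both libraries. From high to low RPKM it ran Polr1c (50.9 in ESCs and 35.6 in NPCs), Polr1d (31.96 and 29.2), Polr1a, Twistnb (18.8 and 17.6), Znrd1 (9.46 and 13.6), Polr1b (3.91 and 10.7), Cd3eap (3.23 and 8.998) and Polr1e (2.70 and 3.56). In ESCs the neighbours Polr1d and Polr1a, Polr1b and Cd3eap, and Cd3eap and Polr1e had overlapping intervals. In NPCs those of Polr1c and Polr1d and of all neighbours from Polr1a to Cd3eap overlapped. The exon length joins the exons of all annotated transcripts, which lowers the RPKM of genes with rarely used exons.

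Among the initiation factors, Ubtf, an HMG-box protein that covers active rDNA (chr11:102165874-102181056), had 308 reads in ESCs and 444 in NPCs. Its ratio was 1.40 (1.21 to 1.62), 0.15 above the median gene on the log2 scale, and its log2 ratio changed from 0.48 to -0.07 when each start position was counted once. Rrn3, the growth-regulated factor that links Pol I to the promoter (chr16:13780792-13814933), had 337 and 436 reads and a ratio of 1.26 (1.09 to 1.45), a log2 ratio 0.01 below that of the median gene. Taf1b, an SL1 subunit (chr12:25183446-25243436), had 47 and 63 reads and a ratio of 1.30 (0.88 to 1.94). These genes sat close to the middle of all genes, and scaling to the median gene put Rrn3 at a log2 ratio of -0.01.

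The other listed factors gave similar values. Taf1d had 182 and 319 exon reads (1.70, 1.41 to 2.05), with 622 and 655 reads in its introns, and its log2 ratio was 0.05 with each start counted once. Taf1c had 72 and 79 reads (1.07, 0.76 to 1.49) and Ttf1, which stops Pol I at the end of the gene, had 92 and 110 (1.16, 0.87 to 1.55). Tbp had 147 and 163 reads (1.08, 0.86 to 1.35), but 93 and 175 further reads lay on the opposite strand of its exons. Taf1a was not analysed here.

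**Figure D4:**
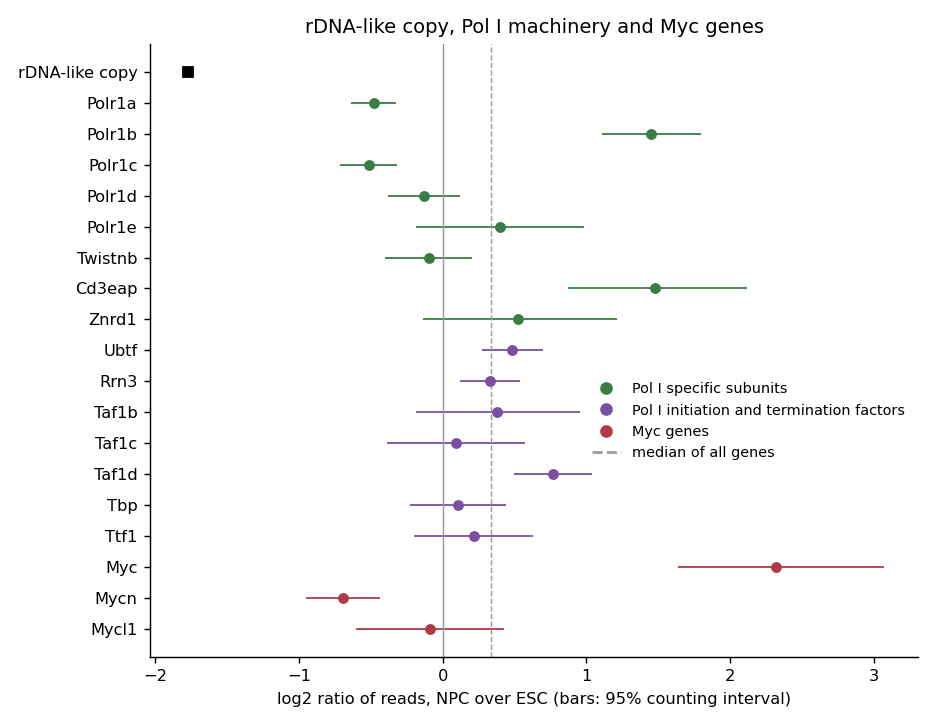
Log2 ratio of NPC over ESC (no read added) with 95% counting intervals for the rDNA-like copy (square), Pol I subunits (green), initiation and termination factors (purple) and Myc genes (red). The dashed line is the median of all genes at 0.34. The copy lies left of every gene shown, and Myc lies farthest right.

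The Myc genes moved in opposite directions. Myc (chr15:61816946-61821929) had 21 exon reads in ESCs and 108 in NPCs, a ratio of 4.99 (3.11 to 8.39). Mycn (chr12:12942902-12948720) had 320 and 204 reads, a ratio of 0.62 (0.52 to 0.74), or -1.03 on the log2 scale relative to the median gene. Per length Mycn stood above Myc in ESCs, at 22.8 against 1.81 RPKM, and in NPCs at 14.1 against 9.03, with intervals of 12.2 to 16.2 and 7.41 to 10.9 that do not overlap. Mycl1 had 67 and 65 reads (0.94, 0.66 to 1.35). Of the 12 genes of the Myc and Max network, 5 were more than 2-fold higher in NPCs and 1 lower, against 24.6% and 12.8% of all genes, with a median log2 ratio of 0.78. These counts became 2 and 1 with each start counted once, and 2 and 3 when scaled to the median gene. Its genes with at least 50 reads reached from Mxi1 (154 and 85 reads, -0.89) to Mxd4 (39 and 291 reads, 2.83), both of which encode partners of MAX that oppose Myc.

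Genes of the other polymerases, set beside Pol I, spread around the median gene as well. The median log2 ratio was 0.15 over 8 Pol I subunits, 0.33 over 7 initiation factors, 0.31 over 7 Pol II subunits, 0.37 over 11 Pol III subunits and -0.40 over the 4 counted subunits that all 3 enzymes share. The median of the Pol I subunits was -0.19 when scaled to the median gene and -0.05 with each start counted once. In the shared list Polr2e had 505 reads in ESCs and 273 in NPCs (0.52, 0.45 to 0.61) and Polr2h 98 and 59 (0.58, 0.42 to 0.82). Polr2a, the largest Pol II subunit gene, had 576 and 1232 reads (2.08, 1.88 to 2.30), while its counterpart Polr1a was lower in NPCs and Polr3a had 149 and 160 reads (1.04, 0.83 to 1.31). Other ends of these lists were Polr2d (log2 ratio 0.83), Polr2b (-0.08) and Polr2i (-0.43) for Pol II, and Polr3k (1.54), Polr3f (1.23) and Polr3g (-0.40) for Pol III. Nearly all reads of Polr2b, 674 of 675 in ESCs, also overlapped another annotated gene on the same strand.

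Factors that act on the spacer after transcription, or on rDNA chromatin, were mostly higher in NPCs, as was the median gene. The small subunit processome, which assembles on the 5′ spacer and is needed for its cleavage, had 21 of 21 listed genes counted. Of these, 15 had a log2 ratio above 0 and 6 below, against 9336 and 5523 of all 14859 genes with at least 10 reads. More than 2-fold, 2 were higher (9.52%, against 24.6% of all genes) and 0 lower, and the median was 0.45. With each start counted once 0 were 2-fold higher and the median was 0.08, and scaled to the median gene 0 were 2-fold higher and 1 lower. Relative to the median gene, 9 of the 21 were lower. Dhx37 (95 and 239 reads, 1.28) and Imp4 (40 and 84 reads, 1.01) were highest, and Rcl1 (104 and 60 reads, -0.83) and Rrp9 (196 and 131 reads, -0.62) lowest.

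Of 17 counted genes for spacer cleavage and decay, which include the RNA exosome and its helpers, 5 were more than 2-fold higher in NPCs (29.4%, against 24.6% of all genes) and 1 lower (5.88%, against 12.8%), with a median of 0.57, and 5 of the 17 lay below the median gene. These counts became 0 and 0 with each start counted once, and 1 and 1 when scaled to the median gene. Las1l, which cuts an internal spacer (72 and 245 reads, 1.71), and C1d, an exosome cofactor (40 and 102 reads, 1.29), were at the top. Exosc5, an exosome core subunit (99 and 42 reads, -1.26), and Nob1 (199 and 172 reads, -0.25) were at the bottom. Xrn2, the exonuclease that degrades released spacer pieces, had 230 and 336 reads (1.42, 1.20 to 1.68), and Exosc10 92 and 191 (2.02, 1.56 to 2.61); both were picked for their role after their values were seen.

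Among 9 rDNA chromatin factors the median was 0.72, with 2 genes more than 2-fold higher (22.2%, near the 24.6% of all genes) and 0 lower, and 4 below the median gene. With each start counted once, or scaled to the median gene, 0 were 2-fold higher, and the median was 0.19 and 0.39. Baz2a, which encodes the large subunit of the nucleolar remodelling complex that silences rDNA, was the lowest (1396 and 1065 reads, ratio 0.74, 0.68 to 0.80) and Nolc1 followed (459 and 521 reads, 0.14). Phf8, a histone demethylase known to activate rDNA (92 and 233 reads, 1.29), and Rrp8 (78 and 166 reads, 1.04) were the highest.

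**Figure D5:**
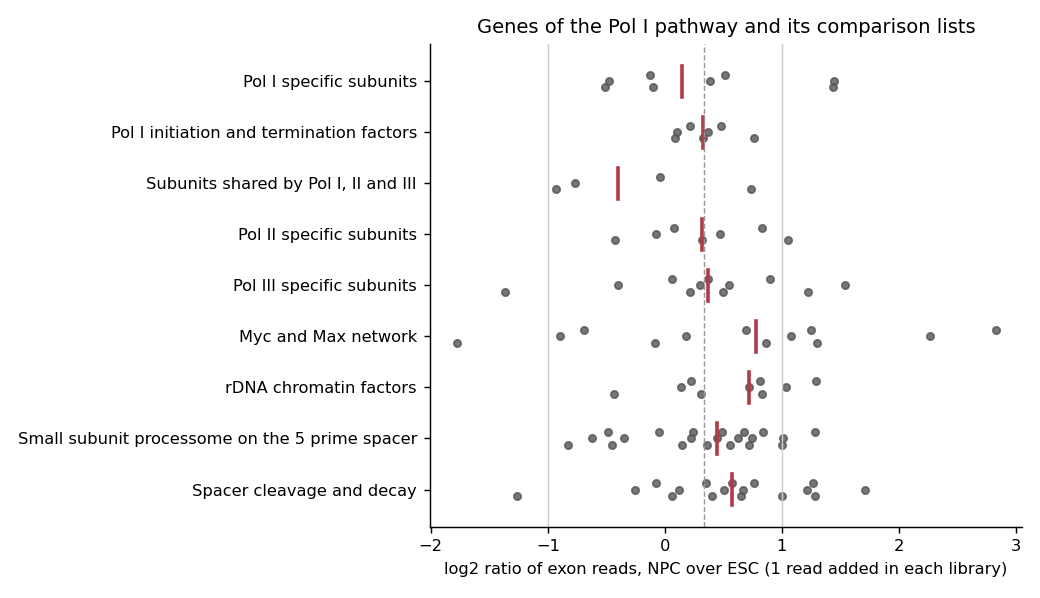
Log2 ratio of exon reads, NPC over ESC, for each listed gene with at least 10 reads (points), with the median of each list (red line), the median of all genes (dashed) and lines at -1 and 1. Points are offset vertically only for legibility. Every list holds genes on both sides of 0 except the initiation factors, which run from 0.09 to 0.76 before any other scaling.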

How the data were processed

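The data are 1 NPA RNA-seq library of R1 ESCs and 1 of day 7 NPCs. The authors depleted poly(A) RNA by oligo(dT), removed rRNA with 1 round of RiboMinus, fragmented 2 µg of RNA with RNase III, selected fragments of 150 to 250 bp, amplified them by 15 PCR cycles and sequenced them on SOLiD. Reads were aligned by the authors to mm9 with Bowtie (named in the submitters' processing notes, version not given in the sources used here), keeping the best placement without requiring uniqueness, and mitochondrial, ribosomal and repeat regions were filtered out. The deposited files list 1 read per line with its position, strand and 48 nt sequence, so the unit is a read placement and not a count table, and counts were made here. Intervals shorter than 48 nt are reads cut at filtered regions: 109 in ESCs and 74 in NPCs in the copy.

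Totals were 4271306 reads in ESCs and 4399729 in NPCs, so 1 read was worth 0.234 and 0.227 RPM. Gene counts were reads on the gene's strand overlapping a GENCODE M1 exon by at least 1 base, and RPKM used the joined exon length. Runs were reads overlapping by at least 1 base on a strand. Log2 ratios add 1 read in each library, and ratios with intervals add none. Intervals were exact Poisson for counts, Clopper-Pearson for shares and conditional binomial for ratios. Where a count was 0, up to 3 reads were allowed for. The 48 nt at each placement were looked up in mm9 for other occurrences, and the copy was compared with mm9 by BLAST 2.17.0. Bases at which reads differ were sought where both libraries had at least 300 reads, and reported above 5% in both. Counting was tested on simulated data.

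Genes named are all members, all genes of the Pol I subunit and factor lists, the 2 highest and 2 lowest log2 ratios of each further list among genes with at least 50 pooled reads, the 10 most used starts and the 3 runs nearest in ratio. Marker genes, Mycl1, Xrn2 and Exosc10 were added after their values were seen. Members and lists were chosen with earlier results of these data known. Python 3.11.15, NumPy 2.4.6, SciPy 1.17.1 and pandas 2.3.3 were used. Alternatives counted each start once, rescaled, kept full-length sequences found once, assigned reads by their 5′ end, left out short intervals, counted both strands, and changed the reads added, the minimum reads, the bins and the read ends. Taf1a, Polr2m, Exosc6, Sox1 and Tfcp2l1 were not analysed here.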

Additional observations from a re-analysis of the deposited data

How the results depend on the processing

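The lower level of the copy in NPCs kept its direction under all 7 alternatives, which were not independent checks. Assignment by the 5′ end and both strands kept the same 89241 and 26879 reads as the main count. Full intervals and sequences found once kept the same 89132 and 26805 reads and differed only in the library totals. The log2 ratio of NPC over ESC was -1.77 for the copy and -1.81 for the 5′ spacer cluster. It became -0.68 and -0.51 with each start position counted once, -1.88 and -1.91 when scaled by the reads outside the 10 runs with the most reads, -2.11 and -2.14 when scaled by the median of gene ratios, and -1.86 and -1.89 with sequences found once and that total. Full intervals only moved it by less than its interval, and assignment by the 5′ end and both strands left it unchanged. Of the 15 Pol I machinery genes, the number more than 2-fold higher in NPCs went from 2 to 0 with each start once, and 0 were lower in every alternative run. The overlap of the profiles rose from 84.0% to 92.7% with each start once. The number of differing sites went from 4 to 10 with at least 100 reads and to 2 with at least 1000. The log2 ratio changed sign for Ubtf, from 0.48 to -0.070 with each start once, and when scaled by the median gene it became -0.0079 for Rrn3 and -0.0079 for the median of the initiation factors. The median of the Pol I subunits went from 0.15 to -0.19 scaled by the median gene, -0.05 with each start once and -0.0061 with sequences found once. The cause was not tested. Over all genes the share more than 2-fold higher and lower was 24.6% and 12.8%, against 12.0% and 11.4% with each start once and 15.7% and 18.7% scaled by the median gene. No paired analysis was possible because each cell type has 1 library. With 1 library each, counting intervals leave out the spread between cultures, and genes such as Polr1e, Taf1b and Znrd1 have too few reads to show differences of the size seen for Ubtf.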

Other observations

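Other places in mm9 resemble the copy. Over at least 100 nt, 17 places were like the read-free stretch and held 0 reads in either library. If that stretch is rRNA, as taken above, the authors' filter on ribosomal sequences would remove such reads. A further 8 places were like the part of the copy before the read-free stretch, the longest over 504 nt and the most alike at 92.3% identity. They held 3 reads in ESCs and 3 in NPCs, all at chr11:103934023-103934450, against 86377 and 25934 in the upstream stretch. All 89132 full-length reads of the copy in ESCs and all 26805 in NPCs were placed at a 48 nt sequence found once in mm9. This lookup covers only sequence in mm9, and whether the reads came from rDNA outside mm9 was not tested. Counted from 39979900, places on chromosomes 1, 11 and 12 began to resemble the copy at bases 43, 44 and 43. These bases lie before the first base with reads, as does all of the match (bases 46 to 209) of chr7:17356542-17356727.

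Reads of the Pol I genes were not spread alike along their exons. The 5′ part of the exons, by length to the midpoint, held 58.6% of the reads of Polr1a (55.9 to 61.3), 30.1% of Polr1c (26.97 to 33.3), 78.8% of Polr1e (69.7 to 86.2) and 30.2% of Myc (22.5 to 38.9), against a median of 50.3% over 14766 genes. Ubtf (50.7%) and Rrn3 (53.0%) lay close to that median.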
